A study of Callithrix jacchus with 54 samples.

Results

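The genes described here are ligands, inhibitors and target genes of the WNT pathway, read in marmoset embryonic stem cells (cjESCs), in the cells that arise while they are induced to primordial germ cell-like cells (PGCLCs), and in PGCLCs grown on with gonadal cells. They were chosen by name, as the rows of the expression table whose marmoset symbol was WNT8A, WNT3, WNT5A, DKK4, LEF1, SP5, AXIN2, NKD1, CDX1 or CDX2. Of these 10 symbols 9 were in the table of 14812 genes, and WNT5A was not analysed here. The 9 genes all passed the filter on low values, and their levels ran from 0 to 325 TPM, a unit that scales transcripts to a fixed total per library.

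RNA was sequenced in 27 conditions with 2 libraries each, 54 in all, from the cjESC line CMES40, whose BLIMP1 (PRDM1) and NANOS3 loci carry tdTomato and eGFP reporters. A line with the transgenes rtTA, tetO-BLIMP1, SOX17-GR and DD-TFAP2C (TG+ line; the labels number the last transgene differently from library to library) was kept in the medium DK20FA, and a line labelled wild type (TG− line) in PESFA. TG+ cells were induced for 12, 24, 48 and 96 h in BLSE (BMP4, LIF, SCF and EGF), in BLSE with enforced SOX17 (SOX17 + BLSE), or in the same mix without BMP4 (SOX17 + LSE). All of these, and the pre-treatment and inductions named next, also received a Rock inhibitor. Dexamethasone, which turns on SOX17-GR, was given only with SOX17. TG− cells were first treated for 24 h with IM12, a WNT agonist, and activin A (pre-treated cjESCs). They were then induced for the same times in BLSE with the WNT inhibitor IWR1, without or with BMS493 (BMS), an inverse agonist of retinoic acid receptors. PGCLCs of the BLSE + IWR1 condition at day 6 were aggregated with mouse gonadal somatic cells into xenogeneic reconstituted ovaries (xrOvaries), sampled at days 20, 40 and 70. Both kinds of cjESC and the pre-treated cells were sorted for TRA-1-60. All cells were taken at 12, 24 and 48 h, and in BLSE also at 96 h. In the other conditions from 96 h on, tdTomato-positive cells were sorted. All libraries are labelled with 1 cell line, so p-values measure the spread between samples of that line.

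WNT ligands are secreted proteins that bind Frizzled and LRP receptors at the cell surface. Without a ligand, β-catenin is broken down by a complex built on axin. With a ligand it is stabilised, enters the nucleus and activates genes together with TCF and LEF factors. Several of these target genes encode inhibitors of the pathway, and their RNA is widely used as a readout of its activity. WNT signaling is known for inducing the primitive streak and mesoderm in the early embryo, and in the mouse it is needed for epiblast cells to become competent for PGC fate. IWR1 is known to inhibit tankyrases and so to stabilise axin. It acts on proteins, and none of the measurements here reads β-catenin itself.

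Depth is unknown, since TPM keep no read totals, and between 10146 and 12688 genes per library were above 0. The pluripotency genes POU5F1, NANOG, SOX2 and PRDM14 summed to 3712 to 4218 TPM in cjESCs in DK20FA and 4329 to 4668 TPM in PESFA. The PGC genes SOX17, PRDM1, TFAP2C and NANOS3 summed to 247 to 280.1 TPM in BLSE at 96 h, and to 1547 to 1819.7 and 1963 to 2132 TPM in the sorted cells of BLSE + IWR1 and SOX17 + BLSE at that time. Sorted cells of SOX17 + LSE at 96 h are labelled differentiated cells, and these PGC genes summed to 1477 to 1582 TPM in them. Reads of the transgenes and of the marmoset's own SOX17, PRDM1 and TFAP2C were not told apart. In BLSE + IWR1 at 12 h replicates 1 and 2 lay over 3-fold apart in 3 of the 9 genes, and calls that change without either of them are given beside the result. The wider design limits some comparisons. PESFA and DK20FA differ in line and medium. BLSE + IWR1 and BLSE also differ in line, medium and pre-treatment, and BLSE + IWR1 and SOX17 + BLSE in dexamethasone as well. Within each comparison these cannot be told apart.

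WNT8A (gene 100402422), a ligand of the primitive streak, had the widest range of the ligands. Its libraries stood at 36.2 and 38.5 TPM in cjESCs in DK20FA and at 0.58 and 1.79 TPM in PESFA. In BLSE it was at 59.5 and 38.0 TPM at 12 h, 99.8 and 103 TPM at 24 h and 28.3 and 26.9 TPM at 48 h, and was listed at 0 in both libraries at 96 h. With IWR1 it was at 33.2 and 27.8, 92.8 and 77.2 and 263 and 298 TPM at the first 3 times. Both 48 h libraries with the WNT inhibitor lay above every library of the other 26 conditions, and the next condition was BLSE + IWR1 + BMS at 24 h with 209 and 233 TPM. The sorted cells at 96 h held 1.43 and 1.20 TPM in BLSE + IWR1 and 26.4 and 22.9 TPM in SOX17 + LSE.

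WNT3 (gene 100398579), a ligand needed for the primitive streak in the mouse, varied less. In DK20FA its libraries were at 49.9 and 52.6 TPM, in PESFA at 8.26 and 10.9 TPM and in pre-treated cells at 17.8 and 11.4 TPM. BLSE + IWR1 at 48 h (51.5 and 73.7 TPM) and BLSE at 12 h (63.0 and 59.4 TPM) had the highest means, and their libraries overlapped. In the sorted cells at 96 h WNT3 stood between 1.27 and 5.77 TPM, and in the xrOvary libraries it did not exceed 0.74 TPM.

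The inhibitors did not share 1 pattern. DKK4 (gene 100394179), a secreted protein that binds the LRP co-receptors, was highest in cjESCs in DK20FA at 44.9 and 62.9 TPM. It was under 1 TPM in 24 of 54 libraries and listed at 0 in 14. AXIN2 (gene 100400518), a scaffold of the complex that breaks down β-catenin, was the steadiest of the 9 genes, between 0.88 and 12.6 TPM. NKD1 (gene 100405821), which binds Dishevelled inside the cell, was highest in sorted PGCLCs. At 96 h its SOX17 + BLSE libraries stood at 26.9 and 25.9 TPM, those of SOX17 + LSE at 20.9 and 18.3 TPM and those of BLSE + IWR1 at 10.5 and 14.0 TPM, against 0.67 and 1.17 TPM in unsorted BLSE cells.

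LEF1 (gene 100399759), a DNA-binding partner of β-catenin and itself a target gene, was highest in BLSE at 96 h with 51.4 and 52.3 TPM. In pre-treated cells and in BLSE + IWR1 it ranged from 0.22 to 4.28 TPM up to 96 h, and it was listed at 0 in all 8 libraries of day 6 and the xrOvaries. CDX2 (gene 100412955), a homeobox factor of the posterior embryo and of extra-embryonic lineages, was at 62.7 and 55.2 TPM in BLSE at 96 h. It had nearly the same level in SOX17 + LSE at 48 h (64.1 and 56.9 TPM) and in SOX17 + BLSE at 48 h (66.9 and 47.7 TPM), 3 conditions whose libraries overlapped. CDX2 was at 0.07 and 0.06 TPM in pre-treated cells.

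CDX1 (gene 100390212), a related homeobox factor that WNT signals switch on directly, was highest in SOX17 + LSE at 48 h with 301 and 325 TPM, and at 0.72 and 2.38 TPM it was lowest in BLSE at 96 h. SP5 (gene 100412604), a zinc-finger factor among the most general WNT targets, was highest in SOX17 + LSE at 24 h with 74.7 and 75.6 TPM. It stood at 60.3 and 74.5 TPM there at 48 h, and at 41.3 and 83.4 TPM in cjESCs in DK20FA, so that cjESCs overlapped with both times. The plot of levels by route and time shows the 9 courses together.

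**Figure D1:**
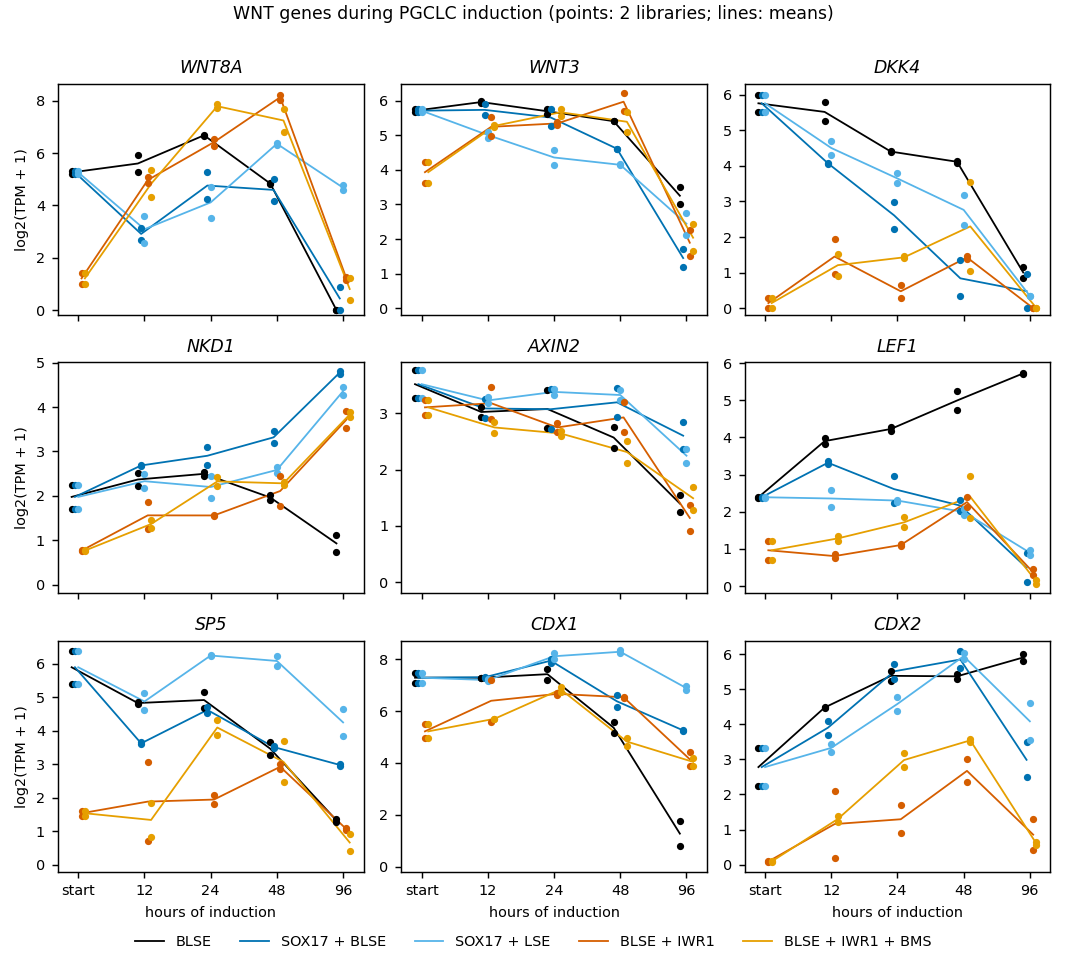
Levels of the 9 WNT genes, as log2(TPM + 1), in the starting cells (cjESCs in DK20FA for BLSE, SOX17 + BLSE and SOX17 + LSE; pre-treated cjESCs for BLSE + IWR1 without and with BMS) and at 12, 24, 48 and 96 h. Points are the 2 libraries of a condition and lines join their means; cells at 96 h are unsorted in BLSE and tdTomato-positive in the other routes, and only in BLSE does LEF1 climb through all 4 times, to 51.4 and 52.3 TPM.

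Differences between conditions were tested with limma on log2(TPM + 1), in 1 model of all 54 libraries. They are given below as the difference of the mean log2 values ± its standard error, with p-values adjusted by the Benjamini-Hochberg method over 11197 genes. A gene is said to rise, fall or be called where its adjusted p was under 0.01. Since a permutation of 2 libraries against 2 has no exact p under 0.333, the calls rest on a spread shared by all conditions. Beside each count of these genes stands the share of all 11197 genes that was called. Of 378 tests of the 9 genes over 42 contrasts, 117 were called, 45 higher and 72 lower. Without each single library in turn 79 of these calls were kept, and the other 38 are marked where they appear. With a pseudocount of 0.1 in place of 1 the calls kept were 89, all in the same direction.

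In the starting cells, 8 of the 9 genes were lower in PESFA than in DK20FA, and AXIN2 did not pass (−0.50 ± 0.30, adjusted p = 0.231). Of all genes, 16.8% were called between these cells, and 8.73% were lower. SP5 stood at 4.22 and 2.63 TPM in PESFA, a difference of −3.78 ± 0.48 (adjusted p = 1.5e-07). CDX1 was at 179 and 136 TPM in DK20FA and 45.0 and 21.5 TPM in PESFA (−2.29 ± 0.31, adjusted p = 6.69e-07). AXIN2 stood at 12.6 and 8.66 TPM in DK20FA and 8.32 and 6.06 TPM in PESFA. WNT3 differed by −2.31 ± 0.30, and LEF1 fell from 4.19 and 4.29 TPM to 0.95 and 0.23 TPM. In DKK4 the libraries in PESFA were 0 and 8.62 TPM, far apart from each other. The call of NKD1 (−1.003 ± 0.25, adjusted p = 0.00218) was lost without cjESC in DK20FA replicate 1 (−0.74, adjusted p = 0.0798) and without cjESC in PESFA replicate 1 (−0.71, adjusted p = 0.0735). The CDX2 call (−2.23 ± 0.42, adjusted p = 9.79e-05) was lost without cjESC in DK20FA replicate 2 (−1.68, adjusted p = 0.0122). In a limma fit of these 4 libraries alone no member was called, 8 having an unadjusted p under 0.05.

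Other cell type lists moved between the same cells. Of 5 primitive streak and mesoderm genes 4 were in the table (TBXT, MIXL1, EOMES and TBX6), and they summed to 761 to 819 TPM in DK20FA and 82.9 to 105 TPM in PESFA. Of 6 stromal genes (COL1A1, COL1A2, COL3A1, DCN, LUM and POSTN), all in the table, the DK20FA libraries summed to 207 to 243 TPM, those in PESFA to 1654 to 2893 TPM and those of pre-treated cells to 2438 to 4642 TPM. By the paper's methods, cjESCs in both media were kept on mouse embryonic fibroblasts. Whether reads of these fibroblasts entered the stromal sums was not tested. Of 4 neural genes 3 were in the table, and their sum did not exceed 81.0 TPM in any library. Their part in the differences of the WNT genes was not tested. In bulk RNA, fewer cells that express a gene and less RNA per cell cannot be told apart.

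Treatment of PESFA cells with IM12 and activin A for 24 h was followed by no call among the 9 genes with limma, 1 having an unadjusted p under 0.05 (DKK4), and by calls in 0.304% of all genes. By the paper's methods, the cells were also moved from mouse embryonic fibroblasts to fibronectin and into another medium for this step. The part of each cannot be told apart. SP5 was at 1.76 and 2.08 TPM after it, with a difference whose 95% interval ran from −1.55 to 0.40. AXIN2 stood at 8.40 and 6.88 TPM (95% interval of the difference −0.52 to 0.69). WNT3 had the largest positive difference, 0.54 ± 0.30 (adjusted p = 0.479). DKK4 was called lower without cjESC in PESFA replicate 1, where the difference came to −3.12 (adjusted p = 0.000802), since the remaining library was the one at 8.62 TPM. The plot of starting cells shows the pre-treated cells beside both kinds of cjESC.

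**Figure D2:**
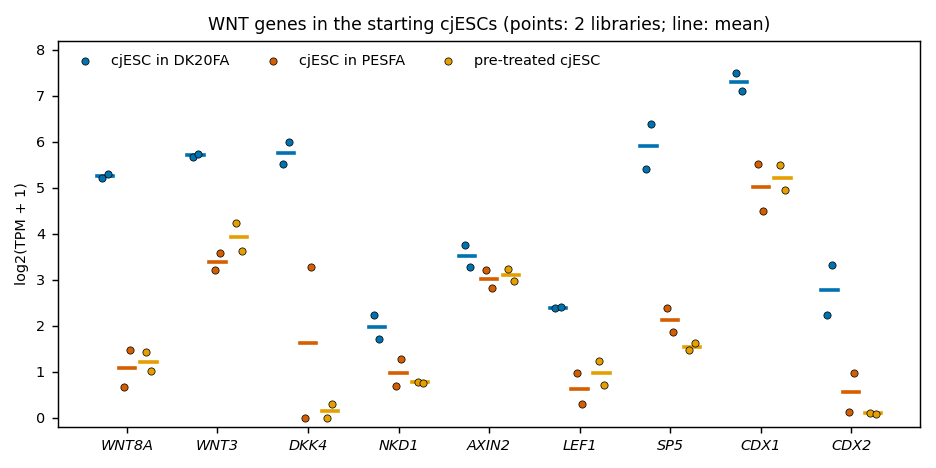
Levels of the 9 WNT genes, as log2(TPM + 1), in cjESCs in DK20FA, cjESCs in PESFA and pre-treated cjESCs. Points are the 2 libraries of each and lines their mean. The difference between DK20FA and PESFA is smallest in AXIN2, which was not called.

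In BLSE alone, LEF1 and CDX2 rose at all 4 times and no other member rose. The share of all genes called was 7.41%, 11.7%, 19.8% and 29.5% at 12, 24, 48 and 96 h, and 2, 2, 4 and 9 of the 9 WNT genes were called. CDX2 went from 3.69 and 9.06 TPM in cjESCs to 21.0 and 21.5 TPM at 12 h (1.70 ± 0.42, adjusted p = 0.00436) and 44.7 and 36.9 TPM at 24 h (2.60 ± 0.42). Its 12 h call was lost without any of 3 of the 4 libraries in turn (cjESC in DK20FA replicate 1, BLSE 12 h replicate 1, BLSE 12 h replicate 2), with differences of 1.15 to 1.71 and adjusted p of 0.0284 to 0.171. With the pseudocount of 0.1 neither CDX2 (1.86, adjusted p = 0.107) nor LEF1 (1.69, adjusted p = 0.0303) was called at 12 h. LEF1 differed by 1.51 ± 0.28 at 12 h and by 3.33 ± 0.28 at 96 h. CDX1 and SP5 fell first, at 48 h, by 1.93 ± 0.31 and 2.43 ± 0.48 on the log2 scale, to 34.7 and 46.4 TPM and 11.7 and 8.69 TPM. The SP5 call at 48 h was lost without cjESC in DK20FA replicate 2 (−1.93, adjusted p = 0.0118). At 24 h WNT8A, at 99.8 and 103 TPM, missed the threshold (1.42 ± 0.41, adjusted p = 0.0108).

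By 96 h in BLSE the other 7 genes had fallen below cjESCs. CDX1 changed most among those not listed at 0, by −6.02 ± 0.31 (adjusted p = 7.75e-18), and SP5 by −4.57 ± 0.48 (adjusted p = 6.1e-10). AXIN2 fell to 1.37 and 1.93 TPM (−2.12 ± 0.30, adjusted p = 3.33e-07), and WNT3 to 7.04 and 10.3 TPM (−2.46 ± 0.30). WNT8A was called lower with both libraries listed at 0, so no size is given. The NKD1 call (−1.05 ± 0.25, adjusted p = 0.000722) was lost without cjESC in DK20FA replicate 1 (−0.78, adjusted p = 0.0412) and without BLSE 96 h replicate 1 (−0.86, adjusted p = 0.0254). Cells at this time had a sum of pluripotency genes of 107 to 128 TPM, of 5 amnion genes (GATA2, GATA3, TFAP2A, ISL1 and HAND1) of 1479.5 to 1556 TPM, against 295 to 484 TPM in cjESCs, and of stromal genes of 1157 to 1828 TPM. TBXT, a defining streak marker, was listed at 0 in both libraries. Their part in the course of the WNT genes was not tested.

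Enforced SOX17 was compared with BLSE alone at 12, 24 and 48 h, in unsorted cells. At 12 h WNT8A was the only member called, at 24 h WNT8A and LEF1, and at 48 h DKK4, LEF1 and NKD1, where 2.4%, 7.56% and 16.7% of all genes were called. The ligand WNT8A was at 7.77 and 5.45 TPM with SOX17 at 12 h, both libraries below the 59.5 and 38.0 TPM of BLSE. At 24 h it was at 38.0 and 17.8 TPM, and the difference of −1.92 ± 0.41 (adjusted p = 0.000936) was lost without BLSE 24 h replicate 2 (−1.89, adjusted p = 0.0155) and without SOX17 + BLSE 24 h replicate 2 (−1.39, adjusted p = 0.0662). By 48 h the libraries overlapped, with 17.1 and 31.2 TPM (−0.24 ± 0.41, adjusted p = 0.737). The effect at 48 h less that at 12 h was 2.45 ± 0.57 (adjusted p = 0.00688) for WNT8A, 1 of 2 members called for this change (LEF1 is the other) beside 2.46% of all genes. It was lost without any of 6 of the 8 libraries in turn (BLSE 12 h replicate 1, BLSE 48 h replicate 1, BLSE 48 h replicate 2, SOX17 + BLSE 12 h replicate 1, SOX17 + BLSE 12 h replicate 2, SOX17 + BLSE 48 h replicate 2), with differences of 2.03 to 2.67 and adjusted p of 0.0139 to 0.073.

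LEF1 parted from BLSE with time under SOX17. At 12 h its libraries were 9.22 and 8.74 TPM (−0.58 ± 0.28, adjusted p = 0.328). At 24 h they were 3.75 and 6.82 TPM (−1.62 ± 0.28, adjusted p = 8.96e-05), and at 48 h 4 and 3.02 TPM. The 24 h call was lost without SOX17 + BLSE 24 h replicate 1 (−1.26, adjusted p = 0.0142). Between 12 and 48 h the effect changed by −2.25 ± 0.40 (adjusted p = 0.000391), a call that did not hold with the pseudocount of 0.1 (−2.48, adjusted p = 0.053). DKK4 was at 0.26 and 1.54 TPM at 48 h, against 15.96 and 16.7 TPM in BLSE. NKD1, also an inhibitor, went the other way: it was higher with SOX17 at 48 h, at 9.98 and 8.06 TPM against 2.76 and 3.04 TPM (1.36 ± 0.25, adjusted p = 5.64e-05). WNT3, AXIN2, SP5, CDX1 and CDX2 were not called at any of the 3 times, and the largest of their differences was that of SP5 at 12 h, −1.20 ± 0.48 (adjusted p = 0.181). With the pseudocount of 0.1, WNT8A at 12 h (−2.85, adjusted p = 0.0542) and 24 h (−1.96, adjusted p = 0.132) and LEF1 at 24 h (−1.79, adjusted p = 0.0204) missed the threshold. Dexamethasone was present only with SOX17, so the part of each cannot be told apart.

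Against cjESCs, SOX17 + BLSE had 2, 3, 5 and 8 of the 9 genes called at 12, 24, 48 and 96 h, beside 9.82%, 16.8%, 26.3% and 43.2% of all genes. These contrasts share the cjESC libraries with those of BLSE. CDX2 rose at 24 and 48 h (3.06 ± 0.42 at 48 h), and at 96 h in sorted cells it was at 4.60 and 10.2 TPM (0.21 ± 0.42, adjusted p = 0.704), the only member not called then. NKD1 rose at 24, 48 and 96 h, by 0.93 ± 0.25, 1.34 ± 0.25 and 2.80 ± 0.25. Among the genes that fell, WNT8A and SP5 did so at 12 h (−2.35 ± 0.41 and −2.27 ± 0.48), and DKK4 from 24 h on. WNT3 fell to 23.5 and 23.3 TPM at 48 h and 1.27 and 2.30 TPM at 96 h. Calls lost without single libraries were those of SP5 at 12 h, without cjESC in DK20FA replicate 2 (−1.77, adjusted p = 0.0357) and without SOX17 + BLSE 12 h replicate 2 (−2.24, adjusted p = 0.0122), and NKD1 at 24 h, without cjESC in DK20FA replicate 2 (0.66, adjusted p = 0.108) and without SOX17 + BLSE 24 h replicate 1 (0.72, adjusted p = 0.0882). At 48 h that of WNT3 was lost without each of the 4 libraries in turn, with differences of −1.06 to −1.14 and adjusted p of 0.0186 to 0.0248, and that of SP5 without cjESC in DK20FA replicate 2 (−1.88, adjusted p = 0.0116). At 96 h the AXIN2 call (−0.91 ± 0.30, adjusted p = 0.00968) was lost without cjESC in DK20FA replicate 1 (−0.67, adjusted p = 0.137) and without SOX17 + BLSE 96 h replicate 1 (−0.67, adjusted p = 0.134). With the pseudocount of 0.1 the course had 12 calls instead of 18, without WNT8A (adjusted p = 0.0405) and SP5 at 12 h, DKK4 (0.0384) and NKD1 at 24 h, WNT3 at 48 h and AXIN2 at 96 h, with adjusted p from 0.0119 to 0.0827.

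At 96 h, sorted SOX17 + BLSE cells were set against unsorted BLSE cells, and 7 of the 9 genes were called beside 45.4% of all genes. NKD1 (3.85 ± 0.25, adjusted p = 8.79e-16), CDX1 (3.99 ± 0.31, adjusted p = 2.29e-13), SP5 (1.66 ± 0.48, adjusted p = 0.00363) and AXIN2 (1.20 ± 0.30, adjusted p = 0.000816) were higher in the sorted cells. LEF1 was lower, at 0.07 and 0.85 TPM (−5.23 ± 0.28, adjusted p = 9.31e-18), as were CDX2 (−2.92 ± 0.42, adjusted p = 2.44e-07) and WNT3 (−1.80 ± 0.30, adjusted p = 2.9e-06). The SP5 call was lost without each of the 4 libraries in turn, with differences of 1.60 to 1.71 and adjusted p of 0.0173 to 0.0259, and the AXIN2 call without BLSE 96 h replicate 1 (1.05, adjusted p = 0.0179) and without SOX17 + BLSE 96 h replicate 2 (0.96, adjusted p = 0.0276). SOX17 and the sort cannot be told apart here, and a median-ratio scaling of the libraries would move the median of all genes by −0.24 in this contrast, where the SP5 difference was then 1.42 (adjusted p = 0.0117).

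Leaving BMP4 out of the SOX17 route was followed by higher CDX1, SP5 and WNT8A at 48 h. No member was called at 12 or 24 h with limma, 3 and 4 having an unadjusted p under 0.05, beside calls in 0.277% and 2.62% of all genes. At 48 h 3 of 9 were called beside 8.01%, and at 96 h 2 of 9 beside 7.11%. CDX1 at 48 h was at 69.9 and 96.8 TPM with BMP4 and 301 and 325 TPM without it (−1.91 ± 0.31, adjusted p = 2.71e-05, with minus without BMP4). SP5 was at 10.3 and 10.7 TPM with BMP4 and 60.3 and 74.5 TPM without (−2.57 ± 0.48, adjusted p = 0.000177). At 24 h the SP5 libraries were already apart, 25.1 and 22.3 TPM against 74.7 and 75.6 TPM, but the difference did not pass (−1.62 ± 0.48, adjusted p = 0.0392). Both factors are targets of the pathway and both were lower when BMP4 was given. No other target among the 9 genes was called at 48 h, and their directions differed. NKD1 went the other way, at 9.98 and 8.06 TPM with BMP4 and 5.29 and 4.71 TPM without, and was not called. AXIN2, LEF1 and CDX2 had overlapping libraries and were not called. DKK4 had the same direction as CDX1 and SP5, at 0.26 and 1.54 TPM with BMP4 and 8.15 and 4.04 TPM without, but was not called.

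The ligand WNT8A had the same direction as CDX1 and SP5. It was at 79.2 and 82.8 TPM without BMP4 at 48 h, and its call (−1.76 ± 0.41, adjusted p = 0.00209) was lost without any of 3 of the 4 libraries in turn (SOX17 + BLSE 48 h replicate 1, SOX17 + LSE 48 h replicate 1, SOX17 + LSE 48 h replicate 2), with differences of −1.35 to −1.79 and adjusted p of 0.0198 to 0.0932. It was also lost with the pseudocount of 0.1 (−1.80, adjusted p = 0.192). In sorted cells at 96 h it was at 0 and 0.85 TPM with BMP4 and 26.4 and 22.9 TPM without (−4.23 ± 0.41, adjusted p = 1.61e-09). CDX1 still differed by −1.63 ± 0.31 (adjusted p = 0.000333) then. WNT3 had the opposite sign at 24 h, with 53.1 and 37.5 TPM with BMP4 and 23.0 and 16.5 TPM without, a difference that did not pass (1.15 ± 0.30, adjusted p = 0.0136). The BMP4 effect on CDX1 changed by −2.02 ± 0.44 (adjusted p = 0.00575) from 12 to 48 h, the 1 member called for this change beside 1.26% of all genes. It was lost without any of 7 of the 8 libraries in turn (SOX17 + BLSE 12 h replicate 1, SOX17 + BLSE 12 h replicate 2, SOX17 + BLSE 48 h replicate 1, SOX17 + LSE 12 h replicate 1, SOX17 + LSE 12 h replicate 2, SOX17 + LSE 48 h replicate 1, SOX17 + LSE 48 h replicate 2), with differences of −1.79 to −2.08 and adjusted p of 0.0198 to 0.0579. At 48 h the streak genes summed to 188 to 229 TPM with BMP4 and 829.8 to 868 TPM without, and the amnion genes to 1617 to 1681 and 531 to 663 TPM. Whether the WNT genes moved with the share of such cells was not tested.

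The plot of differences by treatment sets these effects beside those of IWR1 and BMS493.

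**Figure D3:**
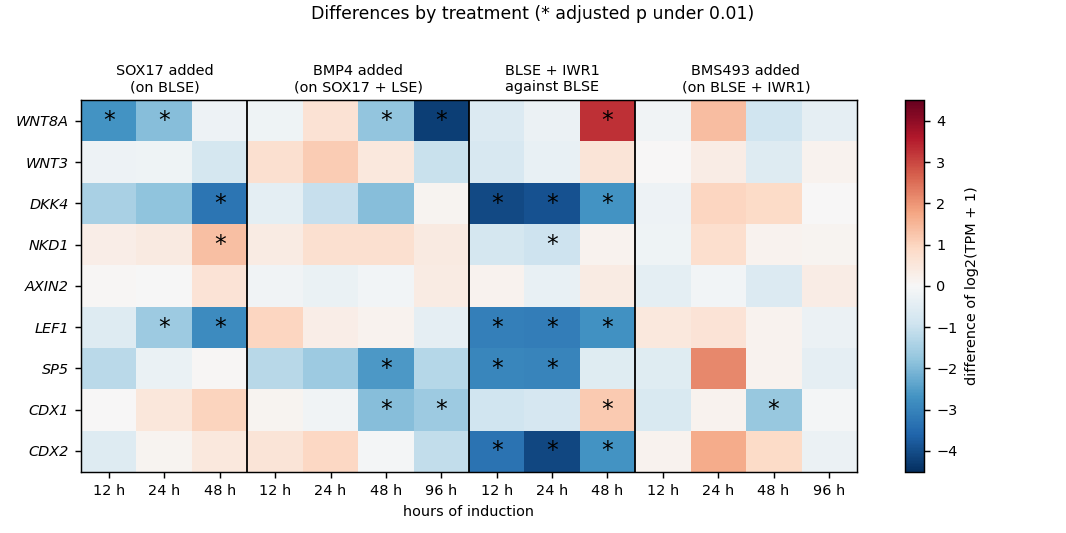
Differences of mean log2(TPM + 1) for the 9 WNT genes (rows) at each time (columns): SOX17 + BLSE minus BLSE, SOX17 + BLSE minus SOX17 + LSE, BLSE + IWR1 minus BLSE, and BLSE + IWR1 + BMS minus BLSE + IWR1, with red higher, blue lower and a star for an adjusted p under 0.01. WNT8A is lower with SOX17 at 12 and 24 h, lower with BMP4 at 48 and 96 h, and higher in BLSE + IWR1 at 48 h (3.30).

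With IWR1, the target and feedback genes CDX2, DKK4, LEF1 and SP5 were lower than in BLSE at 12 and 24 h. At 12, 24 and 48 h 4, 5 and 5 of the 9 genes were called (the 4 at 12 h all lower, as 7.92% of all genes were then), beside 13.8%, 14.6% and 21.2% of all genes. LEF1 was at 0.82 and 0.68 TPM at 12 h against 13.1 and 14.8 TPM in BLSE (−3.09 ± 0.28, adjusted p = 2.17e-10), and still −2.73 ± 0.28 apart at 48 h. DKK4 was at 0.23 and 0.57 TPM at 24 h against 20.2 and 20.1 TPM (−3.93 ± 0.60, adjusted p = 4.75e-06). CDX2 was at 0.86 and 2.23 TPM against 44.7 and 36.9 TPM at that time (−4.09 ± 0.42, adjusted p = 2.15e-09). SP5 differed by −2.97 ± 0.48 (adjusted p = 1.06e-05) at 24 h, but at 48 h it was at 6.22 and 7.04 TPM against 11.7 and 8.69 TPM and did not pass (−0.54 ± 0.48, adjusted p = 0.424). AXIN2, a target gene as well, was not called at any time, and its largest difference was 0.36 ± 0.30 (adjusted p = 0.391). NKD1 was called at 24 h (−0.94 ± 0.25, adjusted p = 0.00446), a call lost without each of the 4 libraries in turn, with differences of −0.89 to −0.99 and adjusted p of 0.021 to 0.0399. With the pseudocount of 0.1 the DKK4 call at 48 h (−3.20, adjusted p = 0.0419) was lost. At 12 h the amnion genes summed to 357 to 485 TPM with IWR1 and 1316 to 1347 TPM in BLSE, and at 24 h to 719 to 954 and 1422 to 1776 TPM. The neural genes summed to 62.5 to 81.0 TPM with IWR1 and 28.4 to 33.6 TPM in BLSE at 24 h, and the part of either in these differences was not tested.

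All 4 of these lower genes were also lower in the cells from which the IWR1 route starts. Pre-treated cells held 0 and 0.22 TPM of DKK4, 1.76 and 2.08 TPM of SP5, 1.33 and 0.63 TPM of LEF1 and 0.07 and 0.06 TPM of CDX2, against 44.9 and 62.9, 41.3 and 83.4, 4.19 and 4.29 and 3.69 and 9.06 TPM in cjESCs in DK20FA. The differences in BLSE + IWR1 against BLSE therefore hold the difference of the starting cells, and the 2 cannot be told apart in that contrast.

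At 48 h the ligand WNT8A and the target CDX1 were higher with IWR1 than in BLSE. WNT8A stood at 263 and 298 TPM against 28.3 and 26.9 TPM (3.30 ± 0.41, adjusted p = 6.29e-08), while at 12 h the libraries were 33.2 and 27.8 and 59.5 and 38.0 TPM (−0.63 ± 0.41, adjusted p = 0.297). The change of this difference from 12 to 48 h was 3.93 ± 0.57 (adjusted p = 7.75e-05), called beside 1.04% of all genes and kept without each of the 8 libraries in turn, but not with the pseudocount of 0.1 (3.99, adjusted p = 0.0843). CDX1 stood at 93.5 and 90.4 TPM against 34.7 and 46.4 TPM at 48 h (1.18 ± 0.31, adjusted p = 0.00373). That call was lost without any of 3 of the 4 libraries in turn (BLSE 48 h replicate 1, BLSE + IWR1 48 h replicate 1, BLSE + IWR1 48 h replicate 2), with differences of 0.97 to 1.20 and adjusted p of 0.0182 to 0.0618. It was also lost with the pseudocount of 0.1 (1.19, adjusted p = 0.0108). WNT3, with 51.5 and 73.7 TPM and 41.5 and 41.3 TPM, did not pass (0.56 ± 0.30, adjusted p = 0.146). At that time pluripotency genes summed to 5324 to 6150.4 TPM with IWR1 and 1404 to 1644 TPM in BLSE, streak genes to 245 to 335 and 87.9 to 88.8 TPM, and their part was not tested.

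The 12 h libraries of BLSE + IWR1 differed from each other in 3 targets. CDX1 was at 147 and 47.2 TPM, SP5 at 7.44 and 0.63 TPM and CDX2 at 3.32 and 0.15 TPM in replicates 1 and 2. With both libraries the CDX1 difference from BLSE did not pass (−0.89 ± 0.31, adjusted p = 0.038). Without replicate 1 it was called lower (−1.70, adjusted p = 0.000111), and NKD1 was called as well (−1.11, adjusted p = 0.00598). The SP5 call at 12 h (−2.94 ± 0.48, adjusted p = 1.42e-05) was lost without BLSE + IWR1 12 h replicate 2 (−1.75, adjusted p = 0.0114), and came to −4.13 without replicate 1. CDX2, DKK4 and LEF1 were called at 12 h with either library alone. From 12 to 48 h the CDX1 difference changed by 2.07 ± 0.44 (adjusted p = 0.00561). That call was lost without any of 7 of the 8 libraries in turn (BLSE 12 h replicate 1, BLSE 12 h replicate 2, BLSE 48 h replicate 1, BLSE 48 h replicate 2, BLSE + IWR1 12 h replicate 2, BLSE + IWR1 48 h replicate 1, BLSE + IWR1 48 h replicate 2), with differences of 1.26 to 2.27 and adjusted p of 0.0115 to 0.115. SP5 changed by 2.40 ± 0.68 (adjusted p = 0.0496), and was called without replicate 1 (3.59, adjusted p = 0.000794).

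Read from its own starting cells, the IWR1 route began low and rose. Of the 9 genes 3, 3, 6 and 4 were called at 12, 24, 48 and 96 h, beside 6.79%, 9.46%, 19.2% and 40.1% of all genes, and all calls up to 48 h were increases, against increases in 1.97%, 4.14% and 9.98% of all genes at those 3 times. WNT8A rose by 3.76 ± 0.41 (adjusted p = 8.4e-09) at 12 h, 5.21 ± 0.41 at 24 h and 6.92 ± 0.41 (adjusted p = 9.91e-16) at 48 h, from 1.67 and 1.01 TPM. WNT3 rose by 2.04 ± 0.30, CDX2 by 2.58 ± 0.42, NKD1 by 1.34 ± 0.25, CDX1 by 1.32 ± 0.31 and LEF1 by 1.297 ± 0.28 at 48 h. SP5 at 48 h was 1.39 ± 0.48 apart and missed the threshold (adjusted p = 0.0264).

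Several of these calls rested on single libraries, and without pre-treated cjESC replicate 2 the number over the 4 times went from 16 to 10. At 12 h the WNT3 call was lost without pre-treated cjESC replicate 2 (1.01, adjusted p = 0.108) and without BLSE + IWR1 12 h replicate 1 (1.03, adjusted p = 0.0631), and the CDX1 call without pre-treated cjESC replicate 2 (0.92, adjusted p = 0.207) and without BLSE + IWR1 12 h replicate 1 (0.37, adjusted p = 0.547). CDX2, at 1.07 ± 0.42 with both 12 h libraries, was called without BLSE + IWR1 12 h replicate 2 (2.02, adjusted p = 0.00211). With the pseudocount of 0.1, WNT3 at 12 h (1.36, adjusted p = 0.0825) and 24 h (1.47, adjusted p = 0.0461) and CDX1 at 12 h (1.20, adjusted p = 0.0258) were not called. At 24 h that of WNT3 was lost without pre-treated cjESC replicate 2 (1.11, adjusted p = 0.0488) and without BLSE + IWR1 24 h replicate 1 (1.37, adjusted p = 0.0134), and that of CDX1 without pre-treated cjESC replicate 2 (1.18, adjusted p = 0.0507) and without BLSE + IWR1 24 h replicate 1 (1.40, adjusted p = 0.0179). At 48 h the LEF1 call was lost without pre-treated cjESC replicate 2 (1.04, adjusted p = 0.03) and without BLSE + IWR1 48 h replicate 2 (1.16, adjusted p = 0.0114), and the CDX1 call without pre-treated cjESC replicate 2 (1.05, adjusted p = 0.0509) and without BLSE + IWR1 48 h replicate 1 (1.29, adjusted p = 0.0124). In the sorted cells at 96 h AXIN2 (−1.96 ± 0.30), WNT3 (−2.04 ± 0.30) and CDX1 (−1.08 ± 0.31) were lower and NKD1 (2.95 ± 0.25) higher than in pre-treated cells. The CDX1 call was lost without pre-treated cjESC replicate 1 (−0.81, adjusted p = 0.082) and without BLSE + IWR1 96 h replicate 1 (−0.82, adjusted p = 0.0808).

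The change from each route's own starting cells was also compared between BLSE + IWR1 and BLSE. This takes out the starting level, but line, medium and pre-treatment still differ between the routes. Of the 9 genes 2, 2 and 5 were called at 12, 24 and 48 h, beside 6.16%, 6.65% and 12.2% of all genes. LEF1 was the only member called with a smaller change under IWR1, with −1.67 ± 0.40 for 12 h (adjusted p = 0.00408) and −1.70 ± 0.40 for 24 h (adjusted p = 0.0032). WNT8A changed more, by 3.42 ± 0.57 (adjusted p = 5e-05) at 12 h, 3.79 ± 0.57 at 24 h and 7.35 ± 0.57 (adjusted p = 6.12e-12) at 48 h. At 48 h SP5 (3.82 ± 0.68, adjusted p = 6.6e-05), CDX1 (3.25 ± 0.44, adjusted p = 9.15e-07), WNT3 (2.34 ± 0.42, adjusted p = 7.05e-05) and NKD1 (1.36 ± 0.35, adjusted p = 0.0043) also had a more positive change with IWR1. For CDX2, lower with IWR1 at every time, the changes to 48 h were 2.59 ± 0.42 and 2.58 ± 0.42, and the 95% interval of their difference ran from −1.20 to 1.19. Without BLSE + IWR1 12 h replicate 2, SP5 (from 1.42 ± 0.68 to 2.60, adjusted p = 0.00608) and CDX1 (from 1.18 ± 0.44 to 1.99, adjusted p = 0.000967) were called at 12 h too, and without replicate 1 they came to 0.23 and 0.37. Without pre-treated cjESC replicate 1, WNT3 was called at 24 h (1.72, adjusted p = 0.0098). The LEF1 call at 12 h was lost without any of 6 of the 8 libraries in turn (cjESC in DK20FA replicate 1, cjESC in DK20FA replicate 2, BLSE 12 h replicate 2, pre-treated cjESC replicate 1, BLSE + IWR1 12 h replicate 1, BLSE + IWR1 12 h replicate 2), with differences of −1.41 to −1.72 and adjusted p of 0.0101 to 0.0321. That at 24 h was lost without any of 5 of the 8 libraries in turn (cjESC in DK20FA replicate 1, BLSE 24 h replicate 1, pre-treated cjESC replicate 1, BLSE + IWR1 24 h replicate 1, BLSE + IWR1 24 h replicate 2), with differences of −1.44 to −1.73 and adjusted p of 0.011 to 0.0268. At 48 h the NKD1 call was lost without any of 6 of the 8 libraries in turn (cjESC in DK20FA replicate 1, BLSE 48 h replicate 1, BLSE 48 h replicate 2, pre-treated cjESC replicate 1, pre-treated cjESC replicate 2, BLSE + IWR1 48 h replicate 2), with differences of 1.01 to 1.41 and adjusted p of 0.0123 to 0.047. With the pseudocount of 0.1, WNT8A at 12 h (4.09, adjusted p = 0.0233) and 24 h (4.48, adjusted p = 0.0121), LEF1 at both times and WNT3 at 48 h (2.41, adjusted p = 0.0155) were not called. Without cjESC in DK20FA replicate 1 the count over the 3 times fell from 9 to 6. The log2(TPM + 1) scale understates changes of genes that start near 0. In pre-treated cells these were DKK4, CDX2, NKD1, LEF1, WNT8A and SP5. Such genes also have little room to fall. From a mean of 1.54 on this scale in pre-treated cells, SP5 could not fall by as much as it did in BLSE (−2.43). Its more positive change with IWR1 is bounded in this way.

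**Figure D4:**
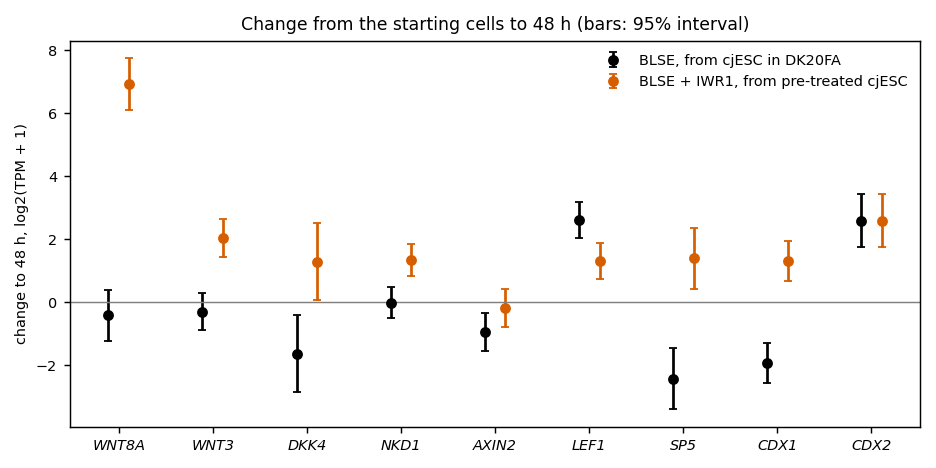
Change of mean log2(TPM + 1) from the starting cells to 48 h for the 9 WNT genes, in BLSE (from cjESCs in DK20FA) and in BLSE + IWR1 (from pre-treated cjESCs), with 95% intervals from the limma model as bars. SP5 and CDX1 fell in BLSE (−2.43 and −1.93), WNT8A rose by 6.92 with IWR1, and CDX2 rose by 2.59 and 2.58.

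BMS493 added to BLSE + IWR1 was followed by 1 call among the 9 genes over the 4 times. CDX1 was lower at 48 h, at 24.5 and 30.5 TPM against 93.5 and 90.4 TPM (−1.71 ± 0.31, adjusted p = 0.000364), and the call was lost without BLSE + IWR1 + BMS 48 h replicate 1 (−1.56, adjusted p = 0.0116). Of all genes 0%, 0.0893%, 4.83% and 0.732% were called at 12, 24, 48 and 96 h. With limma, 1, 5 and 0 of the 9 genes had an unadjusted p under 0.05 at 12, 24 and 96 h, where none was called, nor without either 12 h library of BLSE + IWR1. At 24 h none of the 9 genes was called, and their median difference was 0.77, against 0.043 over all genes. The 3 with the largest differences were SP5, CDX2 and WNT8A. WNT8A was at 209 and 233 TPM with BMS493 and 92.8 and 77.2 TPM without (1.37 ± 0.41, adjusted p = 0.189). SP5 was at 19.0 and 13.7 and 2.54 and 3.23 TPM (2.15 ± 0.48, adjusted p = 0.0277), and CDX2 at 8.11 and 5.84 and 0.86 and 2.23 TPM (1.69 ± 0.42, adjusted p = 0.0587). A p over the threshold does not show that these levels were equal. At 48 h pluripotency genes summed to 3024 to 3315 TPM with BMS493 and 5324 to 6150.4 TPM without. The 48 h libraries with BMS493 were far apart in other genes. Streak genes summed to 701 and 95.7 TPM in replicates 1 and 2, and stromal genes to 85.6 and 278 TPM. WNT8A was at 204 and 111 TPM, DKK4 at 10.8 and 1.06 TPM and SP5 at 11.9 and 4.52 TPM in them. This spread limits what could be called at 48 h, and the part of cell makeup in the CDX1 result was not tested.

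Sorted tdTomato-positive cells of the 2 routes at 96 h were compared with each other. The routes differ in line, medium, pre-treatment and dexamethasone besides IWR1 and SOX17, and these cannot be told apart. Before induction SP5, CDX2 and NKD1 were already lower in PESFA than in DK20FA, while AXIN2 was not called. AXIN2, CDX2, NKD1 and SP5 were lower in BLSE + IWR1 than in SOX17 + BLSE, 4 of 9 genes. Of all genes 6.08% were called and 4.05% were lower. NKD1 was at 10.5 and 14.0 TPM against 26.9 and 25.9 TPM (−1.06 ± 0.25, adjusted p = 0.00311). AXIN2 was at 1.59 and 0.88 TPM against 4.13 and 6.19 TPM (−1.46 ± 0.30, adjusted p = 0.000777), and SP5 at 1.14 and 1.06 against 7.07 and 6.77 TPM (−1.92 ± 0.48, adjusted p = 0.00625). CDX2 was at 0.33 and 1.46 TPM against 4.60 and 10.2 TPM (−2.13 ± 0.42, adjusted p = 0.000466). In all 4 genes the libraries of the routes did not overlap. LEF1 and DKK4 were under 1 TPM in each of the 4 libraries.

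None of these 4 calls was kept without every single library, and the number called was 2, 0, 1 and 2 without SOX17 + BLSE 96 h replicate 1, SOX17 + BLSE 96 h replicate 2, BLSE + IWR1 96 h replicate 1 and BLSE + IWR1 96 h replicate 2. The SP5 call was lost without each of the 4 libraries in turn, with differences of −1.89 to −1.94 and adjusted p of 0.034 to 0.0524. That of NKD1 was lost without any of 3 of the 4 libraries in turn (SOX17 + BLSE 96 h replicate 1, SOX17 + BLSE 96 h replicate 2, BLSE + IWR1 96 h replicate 1), with differences of −0.87 to −1.09 and adjusted p of 0.0279 to 0.0614, and with the pseudocount of 0.1 (−1.12, adjusted p = 0.0261). AXIN2 was lost without SOX17 + BLSE 96 h replicate 2 (−1.22, adjusted p = 0.0405) and without BLSE + IWR1 96 h replicate 2 (−1.23, adjusted p = 0.0364), and CDX2 without SOX17 + BLSE 96 h replicate 2 (−1.63, adjusted p = 0.0453) and without BLSE + IWR1 96 h replicate 1 (−1.69, adjusted p = 0.028). Amnion genes summed to 160.0 to 289 TPM in the IWR1 route and 434 to 538 TPM in the SOX17 route, and their part was not tested.

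Against unsorted BLSE cells at 96 h, sorted BLSE + IWR1 cells had 5 of 9 genes called beside 44.1% of all genes, so the count of members lay near the background. CDX1 (2.87 ± 0.31, adjusted p = 8.96e-10) and NKD1 (2.79 ± 0.25, adjusted p = 5.06e-12) were higher, and LEF1 (−5.35 ± 0.28, adjusted p = 5.99e-18), CDX2 (−5.05 ± 0.42, adjusted p = 8.84e-13) and WNT3 (−1.36 ± 0.30, adjusted p = 0.00019) lower in the sorted cells. The WNT3 call was lost without BLSE 96 h replicate 2 (−1.11, adjusted p = 0.0109) and without BLSE + IWR1 96 h replicate 1 (−0.99, adjusted p = 0.0188). This contrast shares the BLSE libraries with that of SOX17 + BLSE cells at 96 h.

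From 96 h to day 6 of BLSE + IWR1, no member was called with limma, 1 having an unadjusted p under 0.05 (CDX1), beside calls in 2.75% of all genes. CDX1 stood at 13.7 and 20.2 TPM at 96 h and 27.1 and 28.7 TPM at day 6 (0.71 ± 0.31, adjusted p = 0.204). NKD1 was at 15.1 and 14.1 TPM at day 6, and its difference had a 95% interval of −0.25 to 0.75. From day 6 to day 20 in the xrOvary 2 of 9 genes were called, both lower, a count near the background of 20.4% of all genes called and 13.8% lower. WNT3 fell from 2.39 and 4.28 TPM to 0.74 and 0 TPM (−1.68 ± 0.30, adjusted p = 2.72e-05), and WNT8A from 2.20 and 2.24 TPM to 0.58 and 0 TPM (−1.36 ± 0.41, adjusted p = 0.00974). The WNT8A call was lost without any of 3 of the 4 libraries in turn (BLSE + IWR1 day 6 replicate 1, BLSE + IWR1 day 6 replicate 2, xrOvary day 20 replicate 2), with differences of −1.03 to −1.37 and adjusted p of 0.052 to 0.147, and with median-ratio scaling as well (−1.29, adjusted p = 0.012).

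CDX1 and NKD1 were the 2 members that stayed above 3 TPM in all 6 xrOvary libraries. NKD1 stood at 12.97 and 12.9 TPM at day 20, 7.64 and 5.86 TPM at day 40 and 3.35 and 4.12 TPM at day 70. CDX1 stood at 30.2 and 20.9, 13.7 and 12.8 and 8.80 and 10.5 TPM. The libraries of successive days did not overlap in either gene, but no step was called with limma: from day 20 to 40 the difference was −0.86 ± 0.25 (adjusted p = 0.0215) for NKD1 and −0.88 ± 0.31 (adjusted p = 0.0737) for CDX1. Of the 9 genes 2 had an unadjusted p under 0.05 at that step and 1 from day 40 to 70, and of all genes 4.6% and 2.73% were called. SP5 was at 1.45 and 6.82 TPM at day 20, a spread that left its difference from day 6 undecided (0.98 ± 0.48, adjusted p = 0.126). The xrOvary holds mouse cells, and of 5 gonadal somatic genes 3 were in the table (FOXL2, NR5A1 and AMHR2), summing to 0.47 to 1.56 TPM at day 20 and 0 to 0.12 TPM at day 70.

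**Figure D5:**
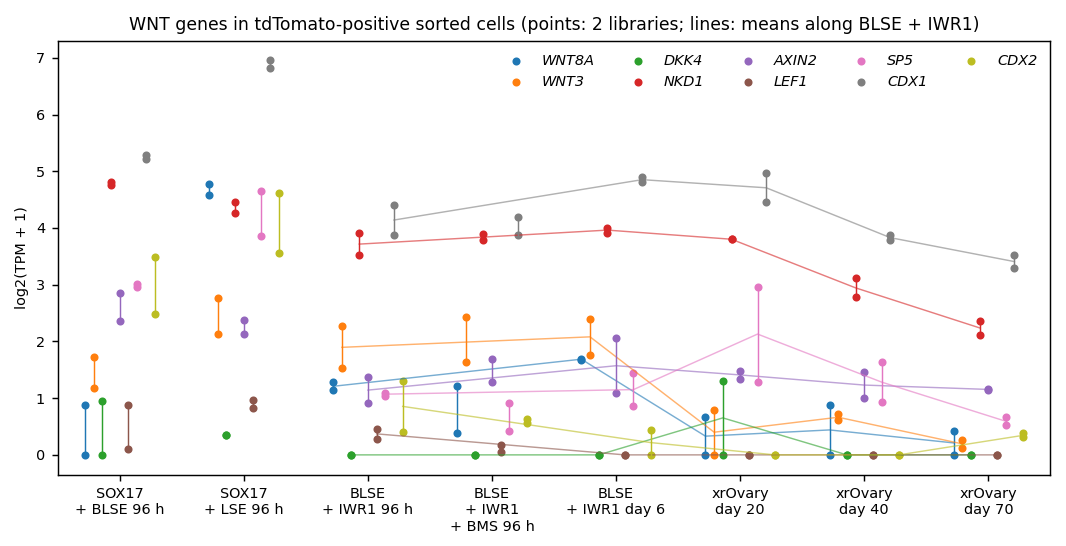
Levels of the 9 WNT genes, as log2(TPM + 1), in tdTomato-positive cells of the 4 routes at 96 h, of BLSE + IWR1 at day 6 and of xrOvaries at days 20, 40 and 70. Points are the 2 libraries of a condition joined by a bar, and thin lines join the means along BLSE + IWR1; CDX1 and NKD1 lie above the other genes from BLSE + IWR1 at 96 h to day 70.

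Across the 27 condition means, members of the set were alike in pairs. The highest correlations of log2(TPM + 1) were those of CDX1 with SP5 (Pearson r = 0.82), AXIN2 with CDX1 (0.82), WNT3 with WNT8A (0.81) and CDX2 with LEF1 (0.81). NKD1 was least like the others, with r from 0.03 to CDX1 down to −0.50 to WNT3. Over the tested genes, without those named only by a LOC symbol, the 3 most like WNT8A were RHOV (0.91), LMNB1 (0.91) and EOMES (0.90). Those most like LEF1 were HS3ST3A1 (0.97), HOXB6 (0.96) and AKR1C1 (0.95). For CDX2 they were RNASE1 (0.93), SLC25A13 (0.92) and WNT3A (0.91), the last a WNT ligand itself. For CDX1 the closest was FMO5 (0.90), for NKD1 METTL2A (0.92), for WNT3 ATF1 (0.96), for AXIN2 HCN2 (0.91), for SP5 ST8SIA6 (0.89) and for DKK4 PYHIN1 (0.89). In each set of replicates alone these values stayed between 0.79 and 0.96 for the 3 genes of every member. The conditions share starting cells, lines and sorting, so these are descriptions of likeness.

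The wider pathway was read with a list of 96 ligands, secretion factors, receptors, R-spondins and their receptors, inhibitors, transducers and nuclear factors, 80 of them in the table and 72 tested, the 9 genes included. Between PESFA and DK20FA 11 of the 72 were higher and 14 lower (16.8% of all genes were called), with a median difference of −0.0023 against −0.082 over all genes. The 8 tested target transcription factors (SP5, SP8, CDX1, CDX2, CDX4, TBXT and others) had 5 lower and none higher, with a median of −2.26, and the 9 tested core transducers, among them β-catenin (CTNNB1) and GSK3B, had no call. Outside the set, MIXL1 (−3.88) and the receptor FZD10 (−3.26) fell and the receptor FZD1 rose (2.69) most. In BLSE + IWR1 against BLSE, 6, 8 and 13 were higher and 12, 13 and 12 lower at 12, 24 and 48 h, when 13.8%, 14.6% and 21.2% of all genes were called. At 48 h the receptors FZD5 (3.41) and FZD10 (2.46) were higher and RSPO3, an R-spondin that enhances WNT signals, lower (−2.17). With SOX17, 2, 6 and 15 were higher and 1, 2 and 11 lower at 12, 24 and 48 h, beside 2.4%, 7.56% and 16.7% of all genes, and RSPO3 was higher by 3.78 at 48 h. BMP4 had 5 higher and 12 lower at 48 h beside 8.01% of all genes, among the latter MIXL1 (−4.69) and the secreted inhibitor CER1 (−4.36). The 8 tested target transcription factors, SP5 and CDX1 included, then had 5 lower and none higher, with a median of −1.76. Pre-treatment had none of the 72 called with limma (9 at an unadjusted p under 0.05). BMS493 had 2 higher and 3 lower at 48 h, when 4.83% of all genes were called, and none at 12, 24 and 96 h (6, 14 and 9 at an unadjusted p under 0.05). At 48 h the receptor FZD10 (−2.15) was lower and RSPO3 (2.06) higher with BMS493. Read as changes from each route's own starting cells, FZD10 (5.24) and the streak factor TBXT (4.87) were more positive in BLSE + IWR1 than in BLSE at 48 h, as WNT8A was. Between day 6 and day 20 6 were higher and 15 lower beside 20.4% of all genes, and WNT2B, a ligand outside the set, rose by 2.65.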

How the data were processed

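RNA of 54 libraries (27 conditions, biological duplicates) was read with single-end, strand-specific sequencing of poly(A) RNA. The authors mapped reads with STAR to the marmoset genome Callithrix_jacchus_cj1700_1.1, filtered alignments by mapping quality and estimated TPM with RSEM. The deposited table holds these TPM for 14812 genes that pair one-to-one with human genes. TPM are relative to the RNA in a library, their sums over the table ran from 790300 to 839203, and they carry no read depth, so counting error is unknown. No 2 libraries were identical, and replicates correlated at r = 0.983 to 0.996 on the log2 scale.

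Members were matched by symbol and described from the deposited TPM of each library. For tests the TPM were converted to log2(TPM + 1), and 11197 genes (the 9 members among them) that reached 1.5 on this scale in 1 or more libraries entered the fit. A linear model with a mean for each condition was fitted with limma (version 3.58.1, R 4.3.3) with an intensity trend, leaving 27 residual degrees of freedom. Each test was two-sided, p-values of a contrast were corrected for 11197 genes after Benjamini and Hochberg, and an adjusted p under 0.01 counted as a call. edgeR, which the authors used, needs counts and was not run. Differences understate the change of low genes.

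All listed genes were to be named. Of the other pathway genes, the rule allowed for each comparison the 3 with the largest absolute difference among those called, over 4-fold apart and with a mean above 1.5 on the log2 scale, and for each member the 3 genes with the highest Pearson r over the condition means. Genes named only by a LOC symbol were left out of the search by Pearson r. Members, lists and tests were chosen with earlier results of these data known. Alternatives were a pseudocount of 0.1, no filter, 2 other scalings, no trend, a fit of the compared libraries only, a replicate block and leaving out each library.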

Additional observations from a re-analysis of the deposited data

Results flagged for a closer look

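The effect of a treatment differed between 12 and 48 h, by a test of the difference itself, in 5 of 36 cases (9 genes, 4 treatments). In each, the value is the log2 difference at 48 h less that at 12 h, from the limma model, with p adjusted over 11197 genes. For SOX17 + BLSE against BLSE, the value was 2.45 ± 0.57 (adjusted p = 0.00688) for the ligand WNT8A, whose difference went from −2.69 ± 0.41 to −0.24 ± 0.41. For LEF1, the partner of β-catenin, it was −2.25 ± 0.40 (adjusted p = 0.000391), from −0.58 ± 0.28 to −2.83 ± 0.28. For SOX17 + BLSE against SOX17 + LSE, the value for CDX1 was −2.02 ± 0.44 (adjusted p = 0.00575), from 0.11 ± 0.31 to −1.91 ± 0.31. For BLSE + IWR1 against BLSE, it was 3.93 ± 0.57 (adjusted p = 7.75e-05) for WNT8A, from −0.63 ± 0.41 to 3.30 ± 0.41. For CDX1 in the same pair it was 2.07 ± 0.44 (adjusted p = 0.00561), from −0.89 ± 0.31 to 1.18 ± 0.31, and the 12 h libraries of BLSE + IWR1 were far apart in this gene. LEF1 under SOX17 and WNT8A under IWR1 were called without each of the 8 libraries in turn, while the other 3 lost their call without 6 or 7 of them. With a pseudocount of 0.1 none of the 5 was called (adjusted p from 0.0223 to 0.265), with the same directions. No member was called for BMS493 with limma, 1 having an unadjusted p under 0.05, beside 0.0893% of all genes.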

How the results depend on the processing

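No call among the 9 genes changed direction under any alternative. Of 117 calls, 115 were kept with median-ratio scaling, 113 with quantile normalization, 110 without the filter, 111 without the intensity trend, 89 with a pseudocount of 0.1 and 72 in fits of the compared libraries only. In fits of the compared libraries only, where few degrees of freedom remain, the number of calls went from 8 to 0 between PESFA and DK20FA, from 7 to 4 for SOX17 at 96 h, from 16 to 8 for the course of BLSE + IWR1, from 1 to 0 for BMS493, from 4 to 0 between sorted cells of the 2 routes, from 2 to 0 in the xrOvary and from 5 to 1 for changes of effects with time. Where these limma fits made no call, 8, 6, 5 and 5 tests had an unadjusted p under 0.05 (PESFA, BMS493, sorted cells and xrOvary). A pseudocount of 0.1 left 3 of 6 calls for SOX17 up to 48 h, 4 of 9 for the difference of courses and 0 of 5 for changes with time (9 tests with an unadjusted p under 0.05). In the xrOvary 1 call was left without the filter, without the trend and with either scaling, and 2 of the 5 changes with time were left without the filter or the trend. The cause was not tested.

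Leaving out 1 library at a time gave 7 to 8 calls between PESFA and DK20FA, 15 to 17 for the course of BLSE, 14 to 18 for that of SOX17 + BLSE, 5 to 6 for SOX17 up to 48 h and 5 to 6 at 96 h. It gave 4 to 5 for BMP4, 0 to 1 for pre-treatment, 10 to 17 for the course of BLSE + IWR1, 13 to 16 for BLSE + IWR1 against BLSE and 4 to 5 for that at 96 h. For the difference of courses it gave 6 to 10, for BMS493 0 to 1, for sorted cells by route 0 to 2, for day 6 0, for the xrOvary 1 to 2 and for changes with time 3 to 6. The 3 came without BLSE 12 h replicate 1, either library of BLSE 48 h or either of SOX17 + BLSE 12 h. Of 524 such refits of single calls 416 kept the call. A median-ratio scaling moved the median of all genes by over 0.1 on the log2 scale in 6 contrasts, by most in SOX17 + BLSE against BLSE at 96 h (−0.24) and BLSE + IWR1 against BLSE at 96 h (−0.20).

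The labels tie same-numbered samples by the number alone. Their deviations correlated at −0.25 to 0.29 over the pairs of groups, at 0.18 to 0.29 between SOX17 + BLSE and BLSE or SOX17 + LSE at 12 and 24 h and at 0.02 to 0.12 between them at 48 and 96 h. With the number as a replicate block 117 of 117 calls were kept and 119 tests passed in all. Exchanging the numbers of BLSE + IWR1 at 24 h, whose correlation with BLSE at 24 h was −0.21, was chosen after seeing the data and kept 14 of 14 calls. Levels near 0 TPM limit what could be seen in DKK4, LEF1 and CDX2 in BLSE + IWR1 at 96 h and day 6 and in the xrOvaries.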
